A study of Mus musculus with 6 samples.

Results

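The genes described here make cholesterol and fatty acids, or control that synthesis. Their levels are given for mouse collecting duct clones labelled as protein kinase A (PKA) double knockouts and for control clones. The rule named 32 genes by symbol: 18 enzymes of sterol synthesis, 5 SREBP factors and their regulators, 3 sterol transport genes and 6 enzymes of fatty acid synthesis. The deposited read table listed 20896 transcripts, and 29 of the 32 genes were among them. The levels of Lss, Stard4 and Abcg1 were not analysed here. All 29 passed the filter on low reads, as did 16683 of the transcripts in all, so the members tested were 17 sterol enzymes, 5 regulators, 1 transporter and 6 fatty acid enzymes.

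Cholesterol is built from acetyl-CoA through mevalonate, the isoprenoid diphosphates, squalene and lanosterol. SREBP transcription factors switch on the enzymes when the membranes of the endoplasmic reticulum are short of sterol: Scap carries SREBP to the Golgi for cleavage, and the Insig proteins hold Scap back when sterol is plentiful. Fatty acid synthesis shares the acetyl-CoA supply and part of the SREBP control. Protein kinase A is known from other tissues to act on lipid metabolism, through substrates that include lipases and metabolic regulators.

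The PKA dKO group was 3 clones labelled as PKA double knockouts, and the control group was 3 control clones, with 1 library per clone. All came from mpkCCDc11, a line of mouse kidney collecting duct cells, and CRISPR-Cas9 is the editing method that the series names. Each library is another clone, so the spread within a group includes clonal differences. All 6 spent 4 days on permeable supports in DMEM/F12 with serum at 2%, dexamethasone at 50 nM, triiodothyronine at 1 nM, insulin and transferrin at 5 µg/mL each, epidermal growth factor at 10 ng/mL, and selenite. For the last 3 days both groups had 0.1 nM dDAVP, an analog of vasopressin, and neither serum nor other hormones. Which genes were edited is not in the labels. Of the PKA catalytic subunit genes, Prkaca had 6.65, 8.49 and 7.43 CPM in dKO clones 1, 2 and 3, against 133, 75.9 and 90.6 CPM in control clones 1, 2 and 3. It fell in dKO clones (log2 fold change -3.69, SE 0.20, limma adjusted p = 1.62e-05). Prkacb had 103 ± 3.43 CPM in dKO clones and 121 ± 14.6 CPM in control clones (SD, n = 3 each; log2 fold change -0.23, limma adjusted p = 0.937), and the edited sites are not stated in the labels.

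CPM, read counts scaled by library size, was computed from whole reads recovered from the deposited columns, 30541578 to 38760162 reads in dKO libraries and 28596444 to 42515838 in control libraries. Libraries of dKO clone 3 and control clone 1 stood apart. In them 2363 and 2443 transcripts lacked any read, compared with 863 to 1045 in the other 4. Of 1351 olfactory and vomeronasal receptor transcripts, 51.0% and 50.8% had a read in them, against 81.9% to 87.4% in the other 4. DKO clone 3 and control clone 1 took positions of 76.8 and 91.7 on a first principal component that held 68.1% of the variance. The others lay between -74.1 and -20.9 on it. Which set of libraries is nearer the state of the cells was not tested. The leading results are therefore also given for the other 4 libraries, and for dKO clone 3 minus control clone 1. Of 7 principal-cell genes, Aqp2, the water channel that defines these cells under vasopressin, was nearly lost in dKO clones, at 3.39, 2.72 and 1.82 CPM, against 399, 140 and 157 CPM in control clones (-6.30 on the log2 scale, SE 0.35, limma adjusted p = 1.62e-05). The other 6 did not pass, and the sum of the 7, mostly Krt18, Krt8 and Cdh1, was 4213 to 4544 CPM in dKO clones and 4653 to 5393 CPM in control clones. The part of these differences in the members' values was not tested. Markers of cells that make much lipid were near 0 in both groups, at 0.645 to 3.26 CPM in dKO clones and 1.11 to 3.57 CPM in control clones for 4 adipocyte genes, and at 0.533 to 1.14 CPM and 0.332 to 1.41 CPM for 4 hepatocyte genes, of which Serpina1a had libraries with no read. Of 4 intercalated-cell genes, Atp6v1b1 had 40.4, 39.9 and 16.4 CPM in dKO clones 1, 2 and 3, against 43.4, 23.2 and 20.4 CPM in control clones 1, 2 and 3, and the others had at most 3.44 CPM in any library. Summed markers reached at most 3.26 and 4.36 CPM for fibroblasts, 4.40 and 4.26 CPM for endothelium, and 68.8 and 59.0 CPM for macrophages, the last almost wholly Csf1r. None of these genes passed over the 6 libraries. In bulk RNA, fewer cells of a type and less RNA per cell cannot be told apart.

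Short stretches of the Hmgcs1 and Srebf2 promoters are shown because they hold the core of the sterol regulatory element, the site through which SREBP acts. The letters searched were TCACNCCA on both strands, in the 250 bases before each RefSeq gene start (GRCm38.p6), and capitals mark the match. The Hmgcs1 stretch is chr13:119690198-119690237 (plus strand) and the Srebf2 stretch is chr15:82147091-82147130 (plus strand).
Hmgcs1: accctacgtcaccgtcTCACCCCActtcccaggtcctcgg
Srebf2: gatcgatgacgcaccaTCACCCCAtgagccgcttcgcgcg
The matches begin 137 bases before the RefSeq start for Hmgcs1 and 162 bases before it for Srebf2, and 248 and 159 bases before the start of the transcript counted in the deposited table. Msmo1 also had a match, 177 bases before its RefSeq start but 37 bases after the start of the counted transcript, so it lies upstream by RefSeq alone. RefSeq promoters were found for 25 of the 32 genes, and these 3 of the 25 (12%) held the core, against 4.2% of 27025 genes with a promoter. Lss is among the 25. No promoter was found for Scd1, Scd2, Sqle, Fdps, Fdft1, Stard4 and Abcg1, so these were not searched. The CCAAT letters, the box bound by NF-Y, were found in 19 of 25 (76%), against 37.5% of all genes. GC boxes, GGGCGG, were in 21 of 25 (84%), against 35.4%, and the E box letters CACGTG in 6 of 25 (24%), against 6.86%. A match at any RefSeq start of a gene counted. The 27025 genes were not limited to those expressed in these cells, so the comparison cannot tell whether the shares are particular to the pathways. These matches are descriptions of letters in the window and do not show a site in use, and a window without a match says nothing of the factor.

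Read sharing between near-identical genes limits some members, and Scd1 and Scd2, whose values lead the results, were checked first. Both encode stearoyl-CoA desaturases, which put the double bond into saturated fatty acids. Scd2 (ENSMUSG00000025203.6; GRCm38 chromosome 19, 44293676 to 44306864, plus strand, 6 exons) and Scd1 (ENSMUSG00000037071.3; chromosome 19, 44394451 to 44407709, minus strand, 6 exons) lie 87586 bases apart. Their coding sequences were identical at 90.3% of 1065 aligned bases, with 147 bases as the longest shared run. The 90 bases around the end of that run are shown, from base 625 to 714 of the Scd1 and 634 to 723 of the Scd2 coding sequence (GENCODE M21), with the base that differs in capitals.
Scd1: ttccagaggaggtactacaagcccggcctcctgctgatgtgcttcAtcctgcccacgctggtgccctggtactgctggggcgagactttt
Scd2: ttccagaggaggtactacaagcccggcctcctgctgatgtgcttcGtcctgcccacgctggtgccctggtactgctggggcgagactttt
Outside such stretches the transcripts differ: 4.66% of the 50-base words of Scd1 and 4.01% of those of Scd2 also occurred in a transcript of another gene. Of the 29 members, 18 had no such word. The 5 members with 10% or more were Fdps (82% shared, most with the overlapping model Gm43738), Acaca (52.6%, with Gm5182), Acat2 (45.9%, with Acat3), Idi1 (21.3%) and Fdft1 (14.1%). The labels do not say how such reads were assigned, so the levels of these 5 are uncertain. Among the genes that held any of these few Scd2 words, Scd1 held the most, and Scd2 had 17.3 to 27.0 times the CPM of Scd1. The gene that held the most of the shared Scd1 words was Scd3, at 1.16 to 3.34 CPM. A small share of Scd2 reads counted as Scd1 could therefore matter for the Scd1 level, and this was not tested. Exons of a gene on the other strand covered 27% of the Fdft1 transcript (Ctsb), 18.6% of Scap, 17.2% of Hmgcs1 and 10.7% of Idi1, and the labels do not say whether counting used strand.

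The line expressed nearly the whole of both pathways. Per length of transcript, 25 of the 29 members lay above the median of the transcripts tested and 11 above their 90th percentile. Scd2 was the highest, at 353 ± 20.5 CPM per kilobase in dKO clones and 274 ± 59.7 in control clones (SD, n = 3 each). Fdps, which makes farnesyl diphosphate, followed at 165 ± 29.5 in dKO and 149 ± 12.5 in control clones, with the uncertainty given above. Msmo1, a methylsterol oxidase, stood at 105 ± 13.3 and 93.6 ± 25.7, and Acly, which makes cytosolic acetyl-CoA from citrate, at 74.9 ± 3.44 and 68.5 ± 8.17 CPM per kilobase in dKO and control clones. At the low end were Dhcr7, the reductase of the last step, with 5.41 ± 0.12 in dKO and 4.71 ± 0.95 in control clones, and Idi1, the isopentenyl diphosphate isomerase, with 5.80 ± 0.67 and 4.83 ± 0.54. Neighbours in this order mostly had overlapping spreads, while Scd2 lay above every other member in both groups. Scd2 took 62.9% to 64.7% of the summed CPM of the 6 fatty acid enzymes in dKO clones and 53.1% to 61.0% in control clones.

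**Figure D1:**
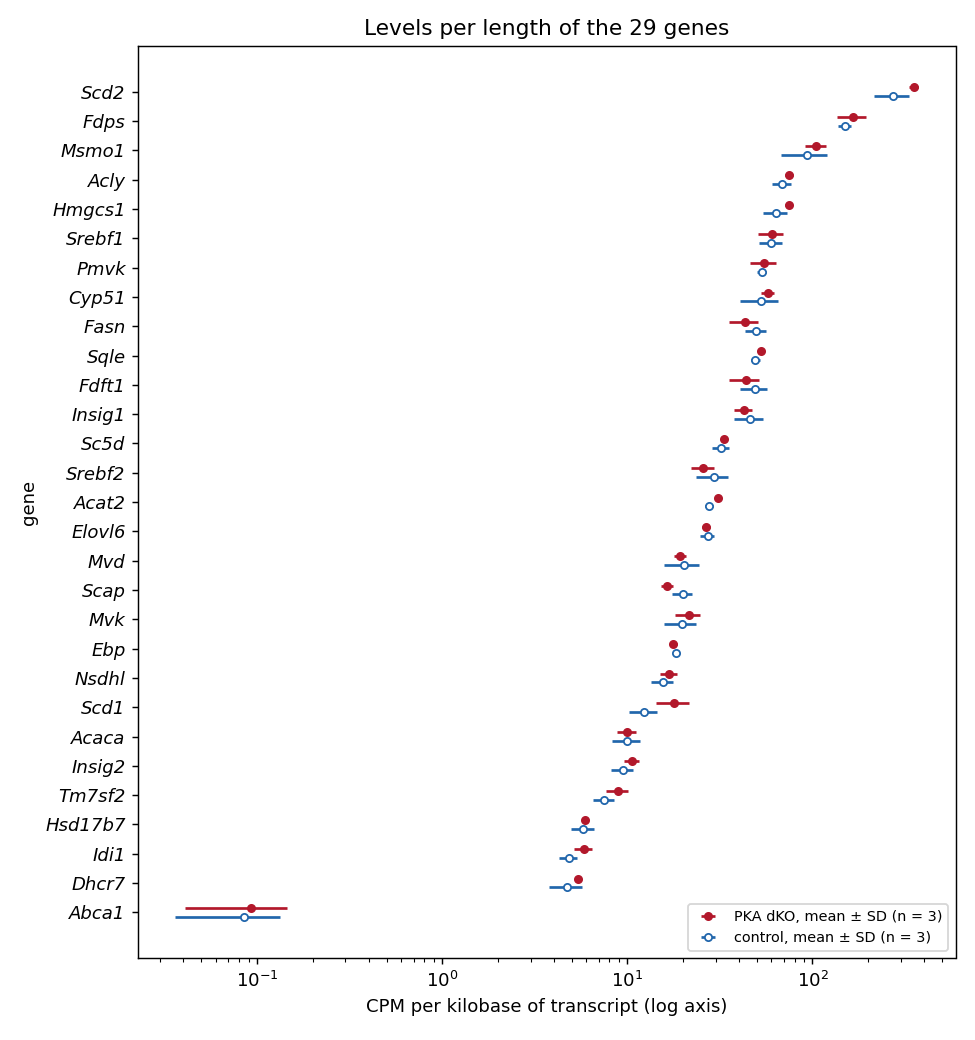
Level of each of the 29 genes in CPM per kilobase of transcript on a log axis, as mean and SD of 3 PKA dKO clones (filled, above) and 3 control clones (open, below). Scd2 is highest at 353 in dKO and 274 in control clones, and Abca1 lowest at 0.093 and 0.085.

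No member passed the test (limma-trend; p adjusted by Benjamini-Hochberg over 16683 transcripts, threshold 0.05), in a comparison of dKO with control clones that called 28 transcripts, 0.168% of those tested. At an unadjusted p under 0.05 there was 1 member, Scd1, against 6.25% of all transcripts. The edgeR quasi-likelihood test called 28 transcripts (0.168%) and DESeq2 213 (1.28%), in both cases none of the members; each gave Scd1 and Scd2 an unadjusted p under 0.05. The log2 fold change was positive for 21 members and negative for 8, and its median was 0.11, beside -0.0016 for all transcripts tested, of which 49.8% were positive. Every dKO library lay above every control library for 2 members, Scd1 and Acat2, against 5.17% of all transcripts, and below them for 1, Scap, against 5.68%. The precision was enough to bound most members: for 22 of the 29 the 95% interval of the fold lay within 1.5-fold in either direction, and for 28 within 2-fold.

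**Figure D2:**
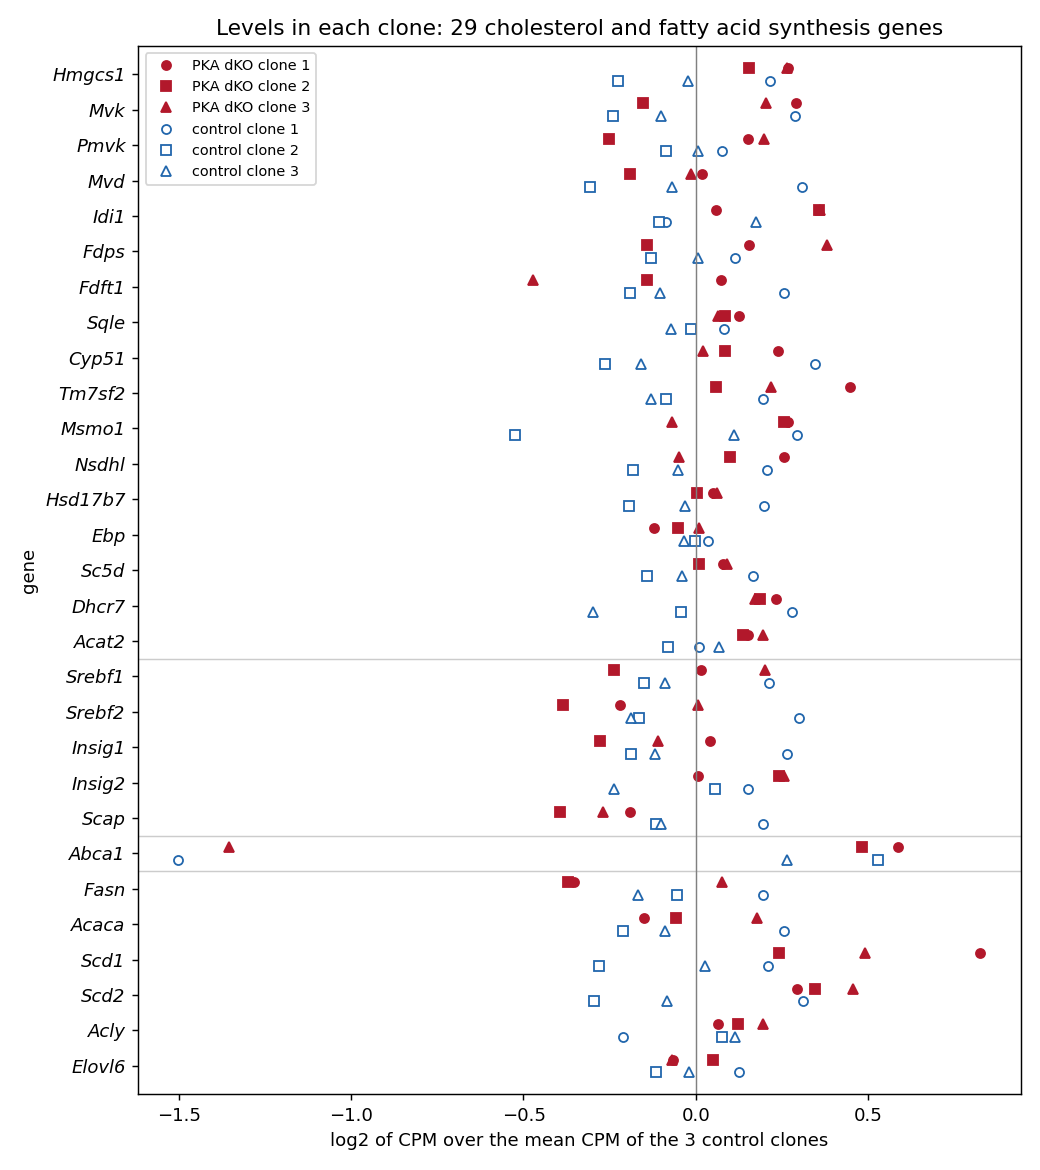
Level of each gene in each clone as log2 of its CPM over the mean of the 3 control clones, with PKA dKO clones filled and control clones open; lines divide sterol enzymes, SREBP factors and regulators, the transporter Abca1, and fatty acid enzymes. The groups lie apart for Scd1, Acat2 and Scap, and they overlap for the other members, Scd2 among them.

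Scd1 had the largest log2 fold change of the members. Its level was 105, 70.2 and 83.6 CPM in dKO clones 1, 2 and 3, against 68.7, 48.9 and 60.6 CPM in control clones 1, 2 and 3. The groups did not overlap, with dKO clone 2 only just above control clone 1. The fold was 1.45, with 1.11 to 1.89 as its 95% interval, or 0.53 on the log2 scale (SE 0.175). The limma adjusted p was 0.473, and Scd1 ranked 396 by p among all transcripts tested. In the other 4 libraries it was 0.66 on that scale (SE 0.16, limma adjusted p = 0.0346), so Scd1 passed there, in a comparison that called 3.39% of all transcripts; it was the only member called. In the same 4 libraries the intercalated-cell marker Atp6v1b1 also passed, at 40.4 and 39.9 CPM in dKO clones 1 and 2, against 23.2 and 20.4 CPM in control clones 2 and 3 (log2 fold change 0.88, limma adjusted p = 0.00166). The other 3 intercalated-cell genes did not pass there, and the part of Atp6v1b1 in the Scd1 value was not tested. Between dKO clone 3 and control clone 1 the difference was 0.28. In the authors' deposited table Scd1 was also called, at a log2 fold change of 0.53 and a false discovery rate of 0.0459; it was the 1 called of 28 members listed, against 3.47% of the 10190 transcripts in that table.

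Scd2 had 1823, 1893 and 2041 CPM in dKO clones 1, 2 and 3, against 1847, 1214 and 1406 CPM in control clones 1, 2 and 3. Control clone 1 lay within the range of the dKO clones, and the other controls lay below it. The fold was 1.31, its interval running between 0.958 and 1.78 (0.39 on the log2 scale, SE 0.20, limma adjusted p = 0.910). The difference was 0.51 on the log2 scale in the other 4 libraries (SE 0.15, limma adjusted p = 0.0716) and 0.14 between dKO clone 3 and control clone 1. The ratio of Scd2 to Scd1 CPM was 17.3, 27.0 and 24.4 in dKO clones and 26.9, 24.8 and 23.2 in control clones, so dKO clone 1 had the lowest ratio. Scd1 and Scd2 share chromosome 19, whose transcripts had median deviations of -0.04, 0.11 and 0.15 on the log2 scale in dKO clones 1, 2 and 3, against -0.01, -0.10 and -0.06 in control clones 1, 2 and 3. With each library's chromosome medians removed, Scd1 stood at 0.40 (SE 0.18) and Scd2 at 0.26 (SE 0.20). The other desaturase genes there, Scd3 and Scd4, had 1.77 to 3.26 CPM in dKO clones and 1.16 to 3.34 CPM in control clones.

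The other fatty acid enzymes did not pass. Fasn, the fatty acid synthase, had 387, 382 and 521 CPM in dKO clones, against 566, 476 and 440 CPM in control clones, so dKO clone 3 lay among the controls and the other dKO clones lay below them. It stood at -0.21 on the log2 scale (SE 0.17; limma adjusted p = 1.00), -0.25 in the other 4 libraries and -0.12 in dKO clone 3 minus control clone 1. Acaca, the acetyl-CoA carboxylase that makes malonyl-CoA, had 93.5 ± 11.2 CPM in dKO and 93.7 ± 16.2 CPM in control clones (n = 3 each). Acly had 313, 326 and 343 CPM in dKO clones, against 258, 315 and 324 CPM in control clones, and Elovl6, which lengthens palmitate, had 158 ± 7.58 and 161 ± 13.6 CPM. Without Scd2, the summed level of the other 5 fatty acid enzymes was 1095 ± 96.8 CPM in dKO clones and 1108 ± 63.5 CPM in control clones. The group's median log2 fold change was 0.07. Fasn and the desaturases had opposite signs, and that difference between genes was not tested.

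**Figure D3:**
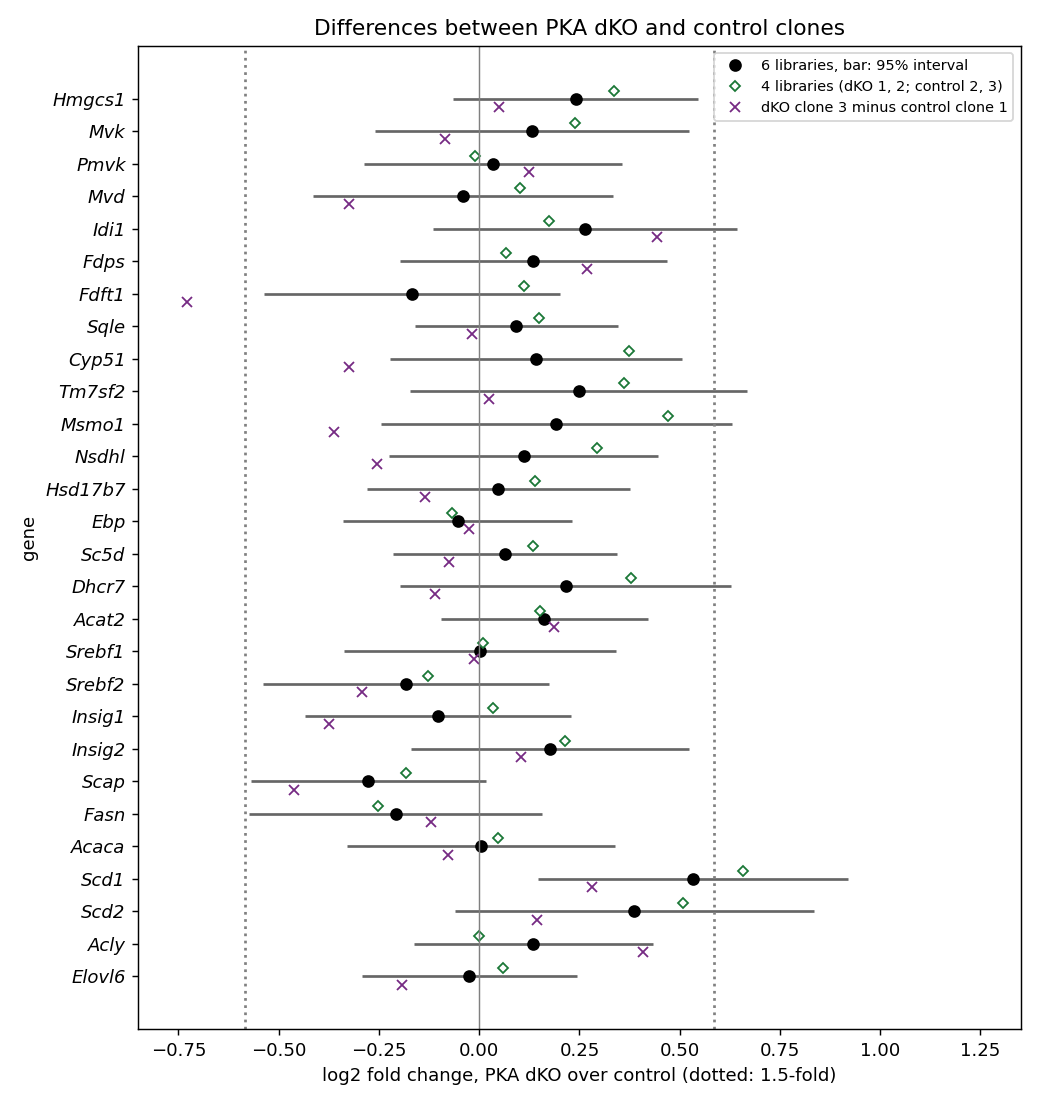
Log2 fold change of 28 members, PKA dKO over control, with its 95% interval (black, 6 libraries), in the 4 libraries other than dKO clone 3 and control clone 1 (diamonds) and between those clones (crosses); Abca1 is left out for its wide interval. The interval of Scd1 alone lies to one side of 0, from 0.15 to 0.92.

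Among the 17 sterol synthesis enzymes 14 had a positive and 3 a negative log2 fold change, within -0.17 to 0.26, and the median was 0.13. None passed, and none had an unadjusted p under 0.05 with limma, the quasi-likelihood test or DESeq2. The summed level of the enzymes was 1644, 1497 and 1542 CPM in dKO clones 1, 2 and 3, against 1672, 1258 and 1417 CPM in control clones 1, 2 and 3, so control clone 1 was the highest library of all. In the other 4 libraries 15 of the 17 were positive (median 0.15), against 48.1% of all transcripts (median -0.014). There 4 of the 17, Hmgcs1, Cyp51, Msmo1 and Nsdhl, had an unadjusted limma p under 0.05, against 14.0% of all transcripts. Between dKO clone 3 and control clone 1, 6 of the 17 were positive (median -0.08), against 51.2% of all transcripts (median 0.012). The median was thus negative only in that difference between single libraries. It was positive over all 6, in the other 4, and whenever 1 library was left out (0.022 to 0.19).

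At the entry to the pathway, Acat2, the cytosolic thiolase that makes acetoacetyl-CoA, had 68.4, 67.7 and 70.5 CPM in dKO clones, against 61.9, 58.2 and 64.5 CPM in control clones. The groups did not overlap, and the fold was 1.12 (interval 0.936 to 1.34; limma adjusted p = 1.00). Its paralog Acat3, with which it shares sequence, had 79.3, 69.4 and 84.1 CPM in dKO clones, against 78.8, 69.9 and 80.0 CPM in control clones. Hmgcs1, the HMG-CoA synthase that follows, had 246, 227 and 245 CPM in dKO clones, against 237, 175 and 201 CPM in control clones. DKO clone 2 lay below control clone 1. The difference on the log2 scale was 0.24 (SE 0.14; limma adjusted p = 0.950), with 0.34 in the other 4 libraries and 0.05 in dKO clone 3 minus control clone 1.

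The kinases and the decarboxylase that turn mevalonate into isopentenyl diphosphate did not pass, nor did the isomerase Idi1 and Fdps. Mvk had 35.1 ± 5.49 CPM in dKO and 32.1 ± 6.31 CPM in control clones, Pmvk 64.8 ± 10.6 and 62.8 ± 3.54 CPM, and Mvd 33.6 ± 2.56 and 35.0 ± 7.66 CPM (n = 3 each). Idi1 had 15.2, 18.7 and 18.7 CPM in dKO clones, against 13.7, 13.5 and 16.4 CPM in control clones. Its log2 fold change of 0.26 (SE 0.17) was the highest of the sterol enzymes and had an interval of 0.923 to 1.56 in fold; in the other 4 libraries it was 0.17. Fdps had 201 ± 35.9 CPM in dKO and 182 ± 15.2 CPM in control clones. The groups overlapped for all 5 of these genes.

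Fdft1, the squalene synthase that commits farnesyl diphosphate to sterols, had 146, 126 and 99.9 CPM in dKO clones 1, 2 and 3, against 165, 121 and 129 CPM in control clones 1, 2 and 3. DKO clone 3 was the lowest and control clone 1 the highest library. Fdft1 lies on chromosome 14, whose median deviation was -0.44 for dKO clone 3 but 0.28 for control clone 1. Its log2 fold change was -0.17 (SE 0.17), 0.11 in the other 4 libraries and 0.04 with chromosome medians removed. Its sign thus turned without those libraries and also with the medians removed. Sqle, the squalene epoxidase that oxygenates squalene, had 143 ± 3.14 CPM in dKO and 135 ± 7.30 CPM in control clones. Its log2 fold change was 0.09 (SE 0.12), 0.15 in the other 4 libraries and 0.22 with the medians of its chromosome, 15, removed (SE 0.12).

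Cyp51, which takes a methyl group off lanosterol, had 244, 220 and 210 CPM in dKO clones 1, 2 and 3, against 263, 172 and 185 CPM in control clones 1, 2 and 3. Msmo1 had 229, 227 and 181 CPM in dKO clones, against 233, 132 and 205 CPM in control clones. For both genes control clone 1 was the highest and control clone 2 the lowest library. Their log2 fold changes were 0.14 (SE 0.17) and 0.19 (SE 0.20). In the other 4 libraries they were 0.37 (SE 0.11, limma adjusted p = 0.0728) and 0.47 (SE 0.15, limma adjusted p = 0.122), and in dKO clone 3 minus control clone 1 they were -0.32 and -0.36.

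None of the remaining enzymes of the sterol ring passed. Tm7sf2, a sterol reductase, had 14.8, 11.3 and 12.6 CPM in dKO clones, against 12.4, 10.2 and 9.92 CPM in control clones (log2 fold change 0.25, SE 0.19). Tm7sf2 lies on chromosome 19, as Scd1 and Scd2 do, and stood at 0.12 with chromosome medians removed. Nsdhl and Hsd17b7, which act in removing the methyl groups, had 35.9 ± 3.82 and 27.3 ± 0.56 CPM in dKO clones, against 33.4 ± 4.65 and 26.5 ± 3.64 CPM in control clones. Ebp, the sterol isomerase, had 30.7 ± 1.39 CPM in dKO and 31.8 ± 0.79 CPM in control clones. Sc5d, a desaturase of the ring, had 74.7 ± 2.27 and 71.7 ± 7.92 CPM. Dhcr7 had 15.1 ± 0.334 CPM in dKO and 13.2 ± 2.66 CPM in control clones, so the dKO clones lay close together inside the wider range of the controls.

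Scap, the escort of SREBP, was the regulator with the lowest fold change. It had 73.1, 63.6 and 69.3 CPM in dKO clones, against 95.5, 77.1 and 77.8 CPM in control clones. The groups did not overlap, and dKO clone 1 lay close under control clone 2. On the log2 scale the difference was -0.28 (SE 0.13; limma adjusted p = 0.844), with -0.18 in the other 4 libraries and -0.46 in dKO clone 3 minus control clone 1. Its fold interval ran from 0.674 to 1.01.

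Srebf1, whose factors favour fatty acid genes, had 258, 217 and 293 CPM in dKO clones, against 296, 230 and 240 CPM in control clones. Srebf2, whose factor favours sterol genes, had 125, 111 and 146 CPM in dKO clones, against 179, 129 and 127 CPM in control clones. The groups overlapped for both, with log2 fold changes of 0.0025 (SE 0.15) and -0.18 (SE 0.16). Srebf2 lies on chromosome 15, whose medians were -0.06 to -0.04 in dKO clones and -0.02 to 0.18 in control clones, and it stood at -0.05 with chromosome medians removed. Insig1, itself a target of SREBP, had 114 ± 12.6 CPM in dKO and 123 ± 21.6 CPM in control clones (log2 fold change -0.10, SE 0.15), and Insig2 had 28.5 ± 2.68 and 25.3 ± 3.45 CPM (0.18, SE 0.16). For all 5 regulators the fold interval lay within 1.5-fold, so a change of that size was outside the intervals of Srebf1, Srebf2, Insig1, Insig2 and Scap.

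Abca1, which exports cholesterol and is switched on by the sterol-sensing LXR receptors, was barely detected. It had 1.29, 1.20 and 0.337 CPM in dKO clones 1, 2 and 3, against 0.304, 1.24 and 1.04 CPM in control clones 1, 2 and 3, on a transcript of 10161 bases. Its low libraries were dKO clone 3 and control clone 1, the same that lacked reads on many other transcripts. Its level per length was above that of 0.695% of the transcripts tested. The fold interval, 0.367 to 3.26, is too wide to bound a difference at this low level.

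The coefficient of variation was lower in dKO clones for 20 of 29, against 58.8% of the 9112 transcripts with a mean of at least 10 CPM. Control clone 1 was the highest control library for 25 of the 29 members, against 69.7% of those transcripts. Control clone 2 was the lowest control for 20, against 54.4%. For 15 members control clone 1 was the highest of all 6 libraries, against 41.0% of those transcripts. Whether the state of that library bears on the members' values was not tested.

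Genes next to the members were given from 8 lists of 77 further pathway genes, of which 75 were tested. None passed with limma, the quasi-likelihood test or DESeq2; at an unadjusted limma p under 0.05 there were 6 with lower and 0 with higher values in dKO clones, against 6.25% of all transcripts. The median log2 fold change of the 75 was 0.01. Among 11 genes of sterol trafficking and esters, 5 were positive and 6 negative. The lowest p in that list was that of Soat1, which esterifies cholesterol for storage. Soat1 had 105, 112 and 132 CPM in dKO clones, against 148, 206 and 143 CPM in control clones, without overlap (log2 fold change -0.49, SE 0.16; limma adjusted p = 0.471). Nceh1, a hydrolase of cholesteryl esters, had 77.3, 81.8 and 117 CPM in dKO clones, against 128, 108 and 128 CPM in control clones (-0.42, SE 0.17; limma adjusted p = 0.667), and dKO clone 3 lay above control clone 2. In the other 4 libraries 3 of the 75 passed, in a comparison that called 3.39% of all transcripts. They were Soat1 at -0.66 (limma adjusted p = 0.0152), Nceh1 at -0.56 (limma adjusted p = 0.0114) and, in the other direction, Cpt1a at 0.44 (limma adjusted p = 0.0371). The marker Atp6v1b1 passed in those libraries too, as given with Scd1. Between dKO clone 3 and control clone 1, Soat1 and Nceh1 stood at -0.16 and -0.13. Soat2, the form of liver and intestine, had 0.624 ± 0.257 CPM in dKO and 1.24 ± 1.00 CPM in control clones.

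**Figure D4:**
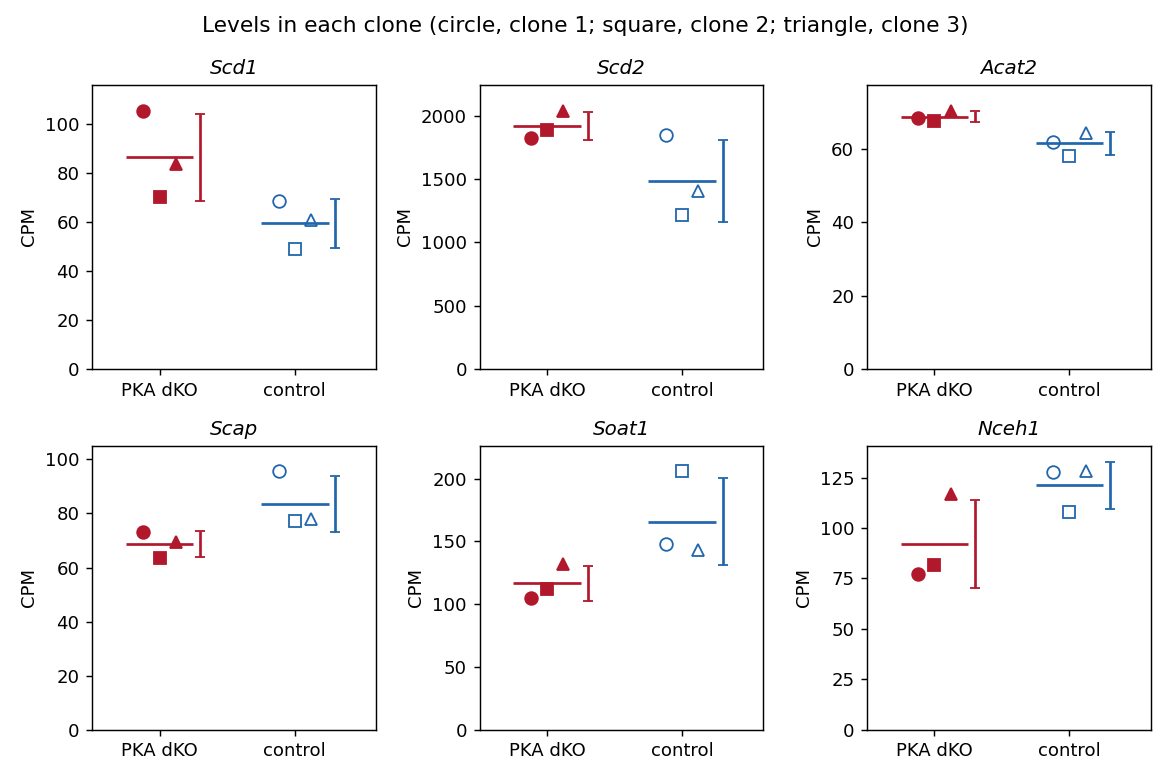
CPM of 4 members and 2 neighbouring pathway genes in each clone, with PKA dKO clones on the left and control clones on the right; the horizontal line is the mean and the bar the SD of 3 clones. The groups do not overlap for Scd1, Acat2, Scap and Soat1, and they overlap for Scd2 and Nceh1.

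Of 15 other lipogenic SREBP targets, 8 were positive and 7 negative. Gpam, which starts triglyceride synthesis, had 63.4 ± 4.86 CPM in dKO and 52.3 ± 3.68 CPM in control clones (log2 fold change 0.28, SE 0.13; limma adjusted p = 0.808). Rdh11 had 88.8 ± 0.33 and 75.9 ± 8.59 CPM, and Acss2, which makes acetyl-CoA from acetate, had 18.1, 12.1 and 9.40 CPM in dKO clones, against 12.1, 7.60 and 9.42 CPM in control clones. Acss2 stood at 0.42 on the log2 scale (SE 0.26). It was 0.805 in the other 4 libraries (limma adjusted p = 0.0644) and -0.36 in dKO clone 3 minus control clone 1. In the SREBP processing list 5 of 9 were positive, led by Erlin2, an endoplasmic reticulum protein that takes part in Insig and SREBP control (0.32, SE 0.16), and Rnf145, a ubiquitin ligase (0.24, SE 0.14). Mbtps1, the Golgi protease that cuts SREBP, had 216 ± 20.1 CPM in dKO and 264 ± 63.7 CPM in control clones. In the LXR list 2 of 8 were positive. Its lowest p was that of Arl4c (181 ± 26.1 CPM in dKO and 250 ± 64.3 CPM in control clones; log2 fold change -0.44, SE 0.19, but -0.13 in the other 4 libraries), followed by the partner receptor Rxra (-0.21, but -0.03 in the other 4 libraries) and Lpcat3 (-0.17, but 0.0027 there).

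Among isoprenoid branch genes, 8 of 10 were positive; Rabggta, a subunit of the enzyme that prenylates Rab proteins, had 49.7 ± 1.98 CPM in dKO clones, against 63.6 ± 8.32 CPM in control clones (log2 fold change -0.35, SE 0.13; limma adjusted p = 0.626; -0.21 in the other 4 libraries). Fntb, a subunit of farnesyltransferase, stood at 0.16 (0.02 in the other 4 libraries), and Pdss1, which makes the tail of ubiquinone, at 0.19. Fatty acid oxidation had 8 of 10 positive, with Hadha and Hadhb, the subunits of the mitochondrial trifunctional protein, at 0.25 and 0.19, and Acadvl, a dehydrogenase for long chains, at 0.10. Cpt1a, which brings fatty acids into mitochondria and was singled out after its values were seen, had 201, 177 and 238 CPM in dKO clones 1, 2 and 3, against 299, 134 and 145 CPM in control clones 1, 2 and 3. Control clone 1 was its highest library, and over all 6 it stood at 0.18 on the log2 scale (SE 0.26; limma adjusted p = 1.00). In the list of lipolysis and lipid droplet genes, 2 of 6 were positive. Lipe, the hormone-sensitive lipase that PKA phosphorylates in fat cells, had 24.0, 18.3 and 23.7 CPM in dKO clones, against 40.6, 25.4 and 22.6 CPM in control clones (-0.39, SE 0.22). Leaving out 1 library gave Lipe -0.56 (without control clone 3) to -0.13 (without control clone 1). The droplet coat gene Plin2 stood at -0.17, with -0.40 without dKO clone 3 and -0.00087 without dKO clone 2. The monoglyceride lipase gene Mgll was low, at 1.45 ± 0.765 CPM in dKO and 1.80 ± 0.604 CPM in control clones. It stood at -0.42 (SE 0.53; interval -1.59 to 0.75 on the log2 scale), and at -0.14 in the other 4 libraries. Of the 6 AMPK subunit genes tested, 3 were positive. Prkaa1, a catalytic subunit of this kinase that inhibits Acaca, had 98.0, 107 and 101 CPM in dKO clones, against 139, 130 and 122 CPM in control clones (-0.35, SE 0.12; limma adjusted p = 0.492), and Prkab1 stood at -0.36 and Prkab2 at 0.32 (-0.24 and 0.13 in the other 4 libraries).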

How the data were processed

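Total RNA of 262 ng per clone was depleted of ribosomal RNA and made into stranded libraries, per the labels' protocols. GRCm38.p5, HOMER 4.8, STAR 2.5.2a, edgeR and SAMtools stand in the submitters' processing notes, without a role. The deposited read columns are a signal: the authors scaled each library to a common total, and division by each library's step gave whole reads (within 0.01) for 100% of values. The deposited FPKM columns were used only to compare implied totals. Of these the recovered reads are 48.1% and 48.7% for dKO clone 3 and control clone 1, and 31.7% to 39.9% for the other 4 libraries. The authors' deposited comparison table gives log2 fold changes with a p-value and false discovery rate each, per the file headers.

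Groups were compared in R 4.3.3 by limma-trend (version 3.58.1) on log2 of TMM-adjusted scaled reads (edgeR 4.0.16) plus 1, about 0.055 CPM, with group as the only term, on transcripts kept by filterByExpr (minimum 10 reads, total 15); 4213 were excluded. Fold changes on this scale understate those of low genes. Alternatives were edgeR's quasi-likelihood test, DESeq2 1.42.0 and limma-voom on recovered reads, other scalings, pseudocounts and filters, and fewer libraries. P-values measure the spread between clones, 1 library each. The members, lists and named genes (all members, Prkaca and Prkacb, and the 3 lowest p of each other list) were chosen with earlier results of these data known. Coordinates are those of the deposited table; gene IDs and exon counts are from GENCODE M21, and 23 of 29 members had the same start and end there. Promoters are from RefSeq, GRCm38.p6.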

Additional observations from a re-analysis of the deposited data

How the results depend on the processing

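Over 18 other settings no member passed except Scd1 in the 4 libraries other than dKO clone 3 and control clone 1, which gave 1 member called, and 17 of 29 members kept their sign throughout. The count over all transcripts, 28, was 17 without TMM factors, 213 with DESeq2, 196 with a replicate block, 566 in the 4 libraries, 71 with a term for the libraries that stand apart, and 11 to 138 when 1 library was left out (dKO clone 1 left out, 13; dKO clone 2, 11; control clone 1, 138). No library left out gave a member called (0 to 0). Leaving out 1 library gave group medians of 0.022 (without control clone 2) to 0.19 (without control clone 1) for sterol enzymes, -0.19 to 0.037 for regulators, -0.45 to 0.71 for Abca1 and 0.048 to 0.12 for fatty acid enzymes. Scd1 ran from 0.38 to 0.67 and Scd2 from 0.25 to 0.55. Signs turned in the 4 libraries for Pmvk (-0.0098), Mvd (0.10), Fdft1 (0.11), Insig1 (0.034), Acly (-0.0011), Elovl6 (0.060) and Lpcat3 (0.0027). They turned with chromosome medians removed for Fdft1 (0.041), Srebf1 (-0.025) and Acaca (-0.023), with DESeq2 size factors for Srebf1 (-0.0054) and Acaca (-0.0035), with DESeq2 for Srebf1 (-0.0019) and Acaca (-0.010), and with the quasi-likelihood test for Acaca (-0.0028). When 1 library was left out the ranges crossed 0 for Pmvk (-0.049 to 0.18), Mvd (-0.18 to 0.13), Msmo1 (-0.050 to 0.36), Hsd17b7 (-0.045 to 0.15), Sc5d (-0.0034 to 0.15), Srebf1 (-0.10 to 0.12), Insig1 (-0.19 to 0.037), Abca1 (-0.45 to 0.71), Acaca (-0.094 to 0.14), Elovl6 (-0.080 to 0.040) and Mgll (-0.75 to 0.11). The cause was not tested. The clone numbers did not pair the samples: correlations of same-numbered deviations were -0.36, 0.64 and -0.34, so clones 1 and 3 went against their own numbers, and under the replicate block no member was called. Low counts limit Abca1, which had 12 to 52 reads in dKO clones and 11 to 45 in control clones. They did not follow library size: Abca1 had 12 and 11 reads in dKO clone 3 and control clone 1, of 37854925 and 39780099 reads. It had 38 in control clone 2, of 28596444 reads. Every other member had at least 312 reads in each library.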
